A study of Mus musculus with 12 samples.

Results

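The postsynaptic density of an excitatory synapse is built on stacked scaffold proteins, and the genes of 3 of its families, Shank1 to Shank3, Dlgap1 to Dlgap4 and Homer1 to Homer3, were followed here in the brains of krill oil-treated and stressed mice. The members were 10 genes chosen by name from a table of 55385 genes, and all 10 were among the 21393 genes that had a mean FPKM (fragments per kilobase of transcript and library size, a level per transcript length) of at least 0.1. They were chosen because 1 of them, Shank2, had opposite krill oil differences without and with stress, so the values of Shank2 in those contrasts are a description and carry no test. The animals were male C57BL/6J mice (C57/BL6J and wild type in the sample labels), 8 weeks old when bought. C_W mice received water and no stress, C_O mice received krill oil by gavage for 5 weeks at 200 mg per kg body weight per day, MS_W mice received water and chronic unpredictable mild stress (CUMS) for 4 weeks, and MS_O mice received both CUMS and krill oil. Each group had 3 mice, every mouse gave 1 library of poly(A) RNA from what the methods describe as the whole brain, and the comparator of krill oil was water and not another oil. Mice were numbered, and a library is called here by group and mouse, such as C_O72.

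In the textbook view, Dlgap proteins (also called SAPAP or GKAP) bind the PSD-95 family of membrane-associated scaffolds near the receptors. Their carboxyl end is held by the PDZ domain of Shank, and Shank in turn carries a proline-rich motif that is bound by Homer, whose tetramers also reach group I metabotropic glutamate receptors and the calcium channels of the endoplasmic reticulum. Shank2 and Shank3 mutations are known causes of autism spectrum disorder, Dlgap3 loss gives compulsive grooming in mice, and the short activity-induced form of Homer1 uncouples the long forms.

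The stretches of coding sequence that link the 3 layers are shown because they are what the members share beyond their names. They were read from GRCm38 with the GENCODE M21 transcripts, all on the plus strand. The Homer-binding stretch lies in exon 24 of Shank1 (chr7:44353569-44353604), exon 22 of Shank2 (chr7:144411114-144411149) and exon 21 of Shank3 (chr15:89549191-89549226), with the codons of the motif in capitals.

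Shank1: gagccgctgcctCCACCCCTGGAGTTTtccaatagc

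Shank2: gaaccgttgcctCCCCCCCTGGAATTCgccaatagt

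Shank3: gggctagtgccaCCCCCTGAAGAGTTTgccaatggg

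The last bases of the Dlgap coding sequences lie in the final coding exons of Dlgap1 (chr17:70818196-70818234), Dlgap2 (chr8:14846670-14846708), Dlgap3 (chr4:127236330-127236368) and Dlgap4 (chr2:156762865-156762903). The capitals mark the 4 codons before the stop codon, which form the end that the Shank PDZ domain holds.

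Dlgap1: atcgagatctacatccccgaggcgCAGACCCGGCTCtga

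Dlgap2: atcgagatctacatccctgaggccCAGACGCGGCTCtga

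Dlgap3: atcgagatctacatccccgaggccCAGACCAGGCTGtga

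Dlgap4: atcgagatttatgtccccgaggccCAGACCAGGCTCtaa

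Over the 39 bases shown, any 2 Dlgap genes were identical at 32 to 36 positions. The Shank stretches were less alike, with 29 of 36 positions identical between Shank1 and Shank2 and 22 between Shank2 and Shank3. The Shank2 stretch was in 4 of 4 complete coding transcripts of the annotation and the Shank3 stretch in 2 of 4. The deposited values are per gene, so forms of a gene that keep or lack such a stretch, or the short and long forms of Homer1, were counted together.

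Shank1 (ENSMUSG00000038738, chr7:44310253-44360572), Shank2 (ENSMUSG00000037541, chr7:144001928-144424494) and Homer2 (ENSMUSG00000025813, chr7:81600481-81707527) share chromosome 7. Dlgap2 (ENSMUSG00000047495, chr8:14095865-14847680) and Homer3 (ENSMUSG00000003573, chr8:70282827-70294361) share chromosome 8. The others are Shank3 (ENSMUSG00000022623, chr15:89499623-89560261), Dlgap1 (ENSMUSG00000003279, chr17:69969073-70821413), Dlgap3 (ENSMUSG00000042388, chr4:127169204-127237022), Dlgap4 (ENSMUSG00000061689, chr2:156613705-156764363) and Homer1 (ENSMUSG00000007617, chr13:93299635-93405129).

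The libraries summed to 50912906 to 75678721 estimated counts, 3 per group. C_O72 and MS_W95 stood apart, with a Pearson correlation over genes of 0.970 with each other, at most 0.937 with any other library, and at least 0.959 among the other 10. The summed FPKM of 8 Purkinje cell markers of the cerebellum was 487 in C_O72 and 1120 in MS_W95 against 41.9 to 131 in the other 10, and that of 7 hindbrain markers was 81.7 and 48.0 against 0.0172 to 0.566. The hindbrain genes Hoxb3 and Hoxc4 were listed at the floor of the table in all 10, and Gabra6, the granule cell receptor subunit, reached at most 0.129, so the defining markers of hindbrain and cerebellum were absent or near absent from 10 of 12 libraries labelled as brain. A score of 10 cortex genes, the mean log2(FPKM + 1), was 2.10 in both C_O72 and MS_W95 and 2.96 to 4.4996 in the others. It did not overlap between C_W (4.14 to 4.402) and MS_W (2.10, 3.16 and 3.21), while the C_O libraries besides C_O72 had 4.11 and 4.4996 and the MS_O libraries 2.96, 3.31 and 4.06. The comparisons of members below are therefore given with and without the pair C_O72 and MS_W95. In bulk tissue, fewer cells of a type and less RNA per cell cannot be told apart.

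All 10 scaffold genes were expressed. The summed FPKM of the Dlgap and Shank families was above that of the Homer family in 11 of 12 libraries, the exception being MS_W95 with 61.8 for Homer against 37.5 for Dlgap and 36.6 for Shank. Dlgap3, the striatum- and cortex-rich member, had the highest mean level over the 12 libraries, 35.6 ± 11.01 FPKM (SD, n = 12), followed by Shank1 (25.2 ± 8.38), Dlgap4 (25.1 ± 6.49), Shank3 (17.6 ± 4.35), Dlgap1 (14.4 ± 4.58) and Shank2 (10.8 ± 4.02). Lower means were found for Homer3 (8.11 ± 15.9), Homer1 (7.95 ± 3.76), Dlgap2 (5.75 ± 2.54) and Homer2 (4.66 ± 1.77). Every pair of neighbours in this order overlapped in their 12 values. Within libraries, Dlgap3 was above Shank1 in 12 of 12, whereas Shank1 was above Dlgap4 in 5 of 12, so the order of these 2 could not be told. Homer3 owed its place to the pair of libraries: it was above Homer1 in 2 of 12 libraries and the lowest of the members in the other 10. Without that pair the mean of Homer3 was 2.66 FPKM, and its values no longer overlapped those of Shank2.

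**Figure D1:**
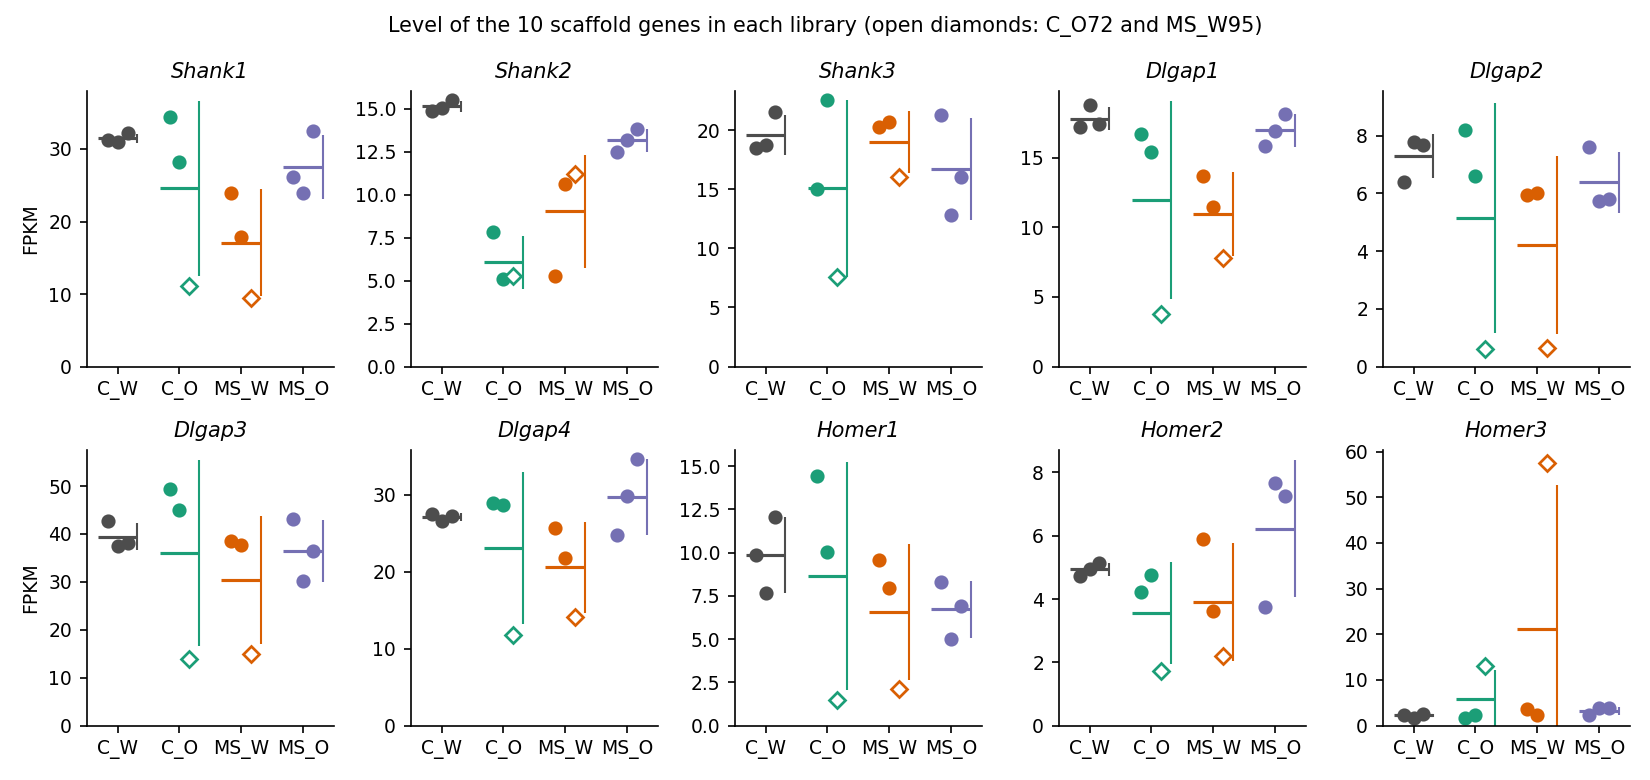
FPKM of each scaffold gene (vertical axes, linear from 0) in the 3 libraries of each group (horizontal axes). Horizontal lines are group means, vertical lines 1 SD cut off at 0, and open diamonds the libraries C_O72 and MS_W95, which are the lowest of all 12 for Dlgap1, Dlgap2, Dlgap3 and Homer1 and the highest for Homer3.

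The spread of most members followed C_O72 and MS_W95. In both libraries 7 of the 10 members (Shank1, the 4 Dlgap genes, Homer1 and Homer2) lay below all other 10 libraries, a position held by 11.7% of all tested genes, and Homer3 lay above them, as did 16.3% of all tested genes. Dlgap2 was the member with the lowest ratio, at 0.619 FPKM in C_O72 and 0.634 FPKM in MS_W95 against 5.73 to 8.19 FPKM in the other 10. Homer1 was at 1.496 and 2.13 FPKM against 4.99 to 14.4 FPKM. Homer3, the Homer paralogue known to be rich in Purkinje cells, was at 13.2 FPKM in C_O72 and 57.5 FPKM in MS_W95 against 1.74 to 3.80 FPKM in the others, which is 5.55 and 24.2 times their median. These libraries are also the ones with high Purkinje markers, whose part in the Homer3 values was not tested.

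Shank3 and Shank2 were the exceptions. Shank3 was below the other 10 in C_O72 (7.62 FPKM) and within them in MS_W95 (16.01 FPKM, others 12.8 to 22.6). Shank2 lay within the range of the other 10 in both, at 5.25 FPKM in C_O72 and 11.2 FPKM in MS_W95 against 5.08 to 15.5. The low end of that range was C_O30, from a group on which Shank2 was picked, so this position is a description. The coefficient of variation of Shank2 was 37.1% over 12 libraries, below those of Homer3 (196%), Homer1 (47.2%), Dlgap2 (44.2%) and Homer2 (37.9%). Over the 10 libraries without the pair it was 35.1% for Shank2, followed by Homer3 (29.4%), Homer1 (29.2%) and Homer2 (26.3%), and 12.3% to 18.2% for the other 6. This spread takes in the differences between groups for which Shank2 was picked, so its place in that order is a description too.

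**Figure D2:**
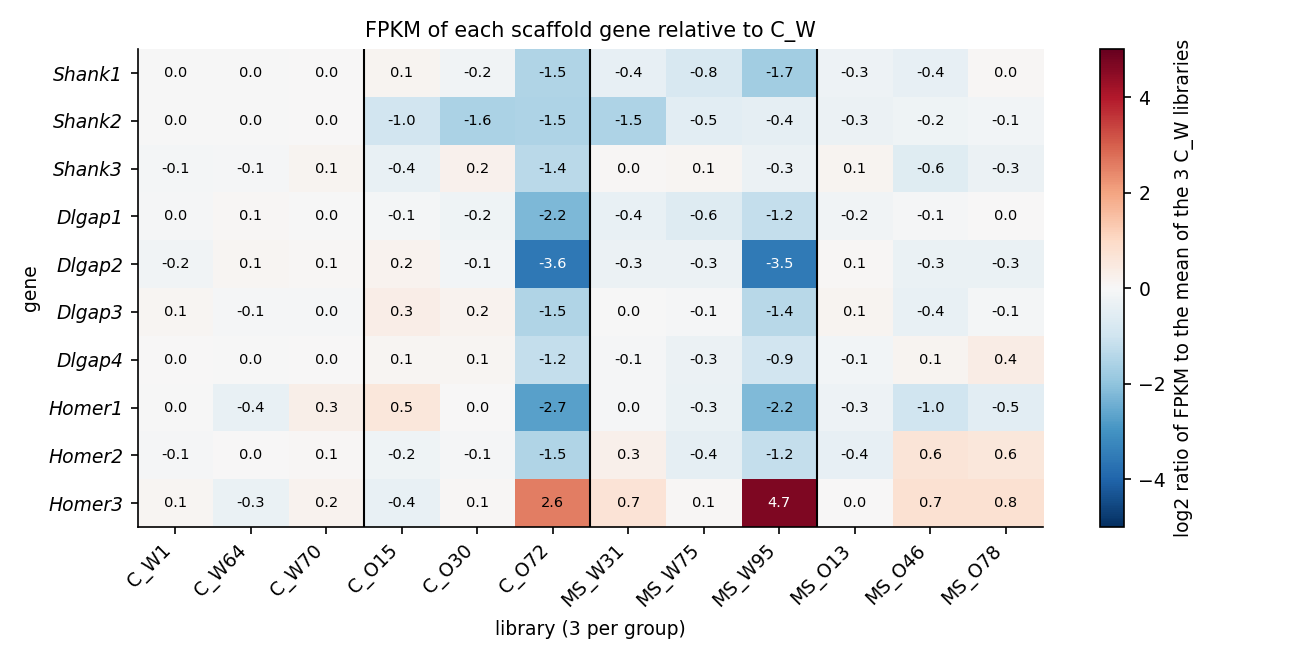
Log2 ratio of the FPKM of each gene (rows) in each library (columns) to the mean of the 3 C_W libraries. The columns C_O72 and MS_W95 are blue for most genes and red for Homer3 (2.6 and 4.7), whereas the Shank2 row is lowest in the 3 C_O libraries and MS_W31.

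The pair also had another makeup of the Homer family. Homer3 took 80.3% of the summed Homer FPKM in C_O72 and 93.0% in MS_W95, and 8.5% to 23.0% in the other 10 libraries. Homer1 took 30.4% to 70.8% in those 10 and was the leading Homer gene in 8 of them, the exceptions being MS_O46 and MS_O78, in which Homer2 led with 46.7% and 40.4%. Within the Dlgap family Dlgap3 held 36.5% to 48.9% of the sum in all 12 libraries and led in every one, although the sum itself was 30.0 and 37.5 FPKM in the pair against 76.9 to 103 FPKM elsewhere. Within the Shank family the share of Shank2 was 22.4% to 23.2% in C_W and 20.8% to 26.4% in MS_O. It was 9.1% to 21.9% in C_O and ranged from 10.6% to 30.6% in MS_W.

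**Figure D3:**
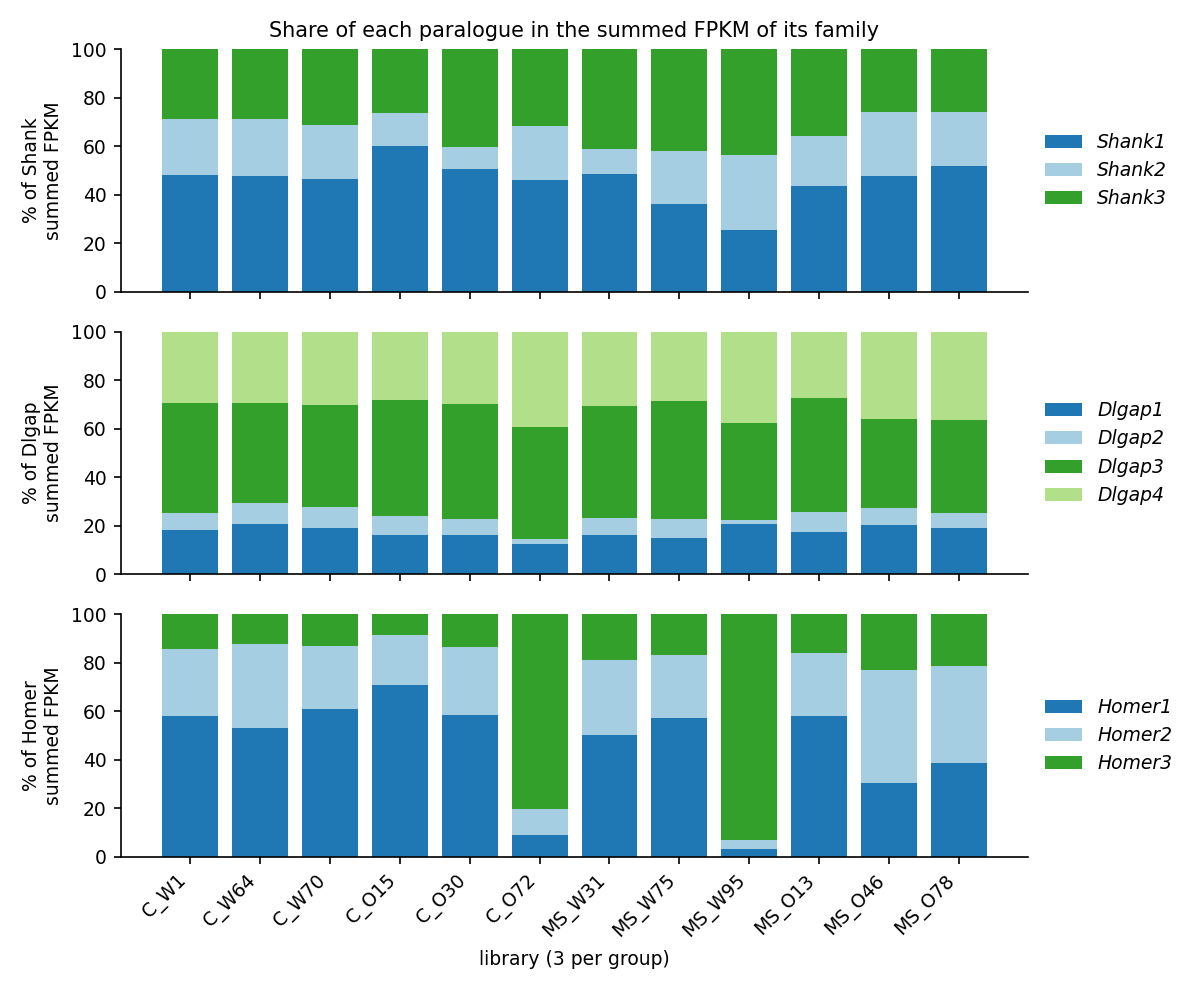
Share of each paralogue (vertical axes, percent) in the summed FPKM of the Shank, Dlgap and Homer families in each library (horizontal axis). Homer3 fills 80.3% and 93.0% of the Homer bars of C_O72 and MS_W95, and Dlgap3 is the largest part of every Dlgap bar.

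The first comparison was krill oil against water in unstressed mice. Shank2, the large scaffold named above, was at 14.9, 15.1 and 15.5 FPKM in the 3 C_W libraries and at 7.83, 5.08 and 5.25 FPKM in C_O15, C_O30 and C_O72. The C_O values did not overlap those of C_W, and the log2 fold change, on the scale of log2(FPKM + 1) used throughout, was -1.22 (SE 0.23) with 12 libraries and -1.14 (SE 0.24) without the pair. As Shank2 was picked on this difference, no test is attached to it.

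None of the other 9 scaffold genes passed the test between C_O and C_W. Shank2 is left out of these counts, since it was picked on this contrast. By limma with adjustment over all genes 0 of the 9 were past the threshold (background 0%), 0 had an unadjusted p under 0.05 (background 3.55%), and 0 met the study's criteria for a DEG, an unadjusted p under 0.05 with a change of the mean FPKM of more than 2-fold (background 1.76%). edgeR on the estimated counts also put 0 of the 9 past the adjusted (background 0%) and the unadjusted threshold (4.47%). DESeq2, which gave no p for Homer3 in any comparison, put 0 of 8 past either (0.255% and 5.87%). Without the pair limma had 0 of 9 at an unadjusted p under 0.05 (background 4.06%). The largest difference among the other 9 was that of Dlgap2, with a log2 fold change of -0.77 (SE 0.67, adjusted p = 0.908), and it was 0.02 (SE 0.14) without the pair. Dlgap1, which links PSD-95 to Shank, was at 16.7, 15.4 and 3.78 FPKM in C_O and at 17.2, 18.8 and 17.4 FPKM in C_W. All 3 C_O values were below all 3 C_W values, but the nearest ones were close, and the log2 fold change of Dlgap1 was -0.75 (SE 0.41, adjusted p = 0.908), or -0.14 (SE 0.10) without the pair.

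Besides Shank2, the groups did not overlap for 1 member, Dlgap1, against 9.42% of all tested genes. The median log2 fold change over the 10 members was -0.48 with 12 libraries, with 9 of 10 below 0, and -0.05 without the pair, with 6 of 10 below 0, whereas over all tested genes it was 0.00 and -0.01. Without the pair 3 of the 9 did not overlap (background 19.3%), as Dlgap3 and Dlgap4 were then above C_W in both remaining C_O libraries, at 49.3 and 45.1 FPKM for Dlgap3 (C_W 37.4 to 42.7) and at 28.9 and 28.7 FPKM for Dlgap4 (C_W 26.5 to 27.6). Their log2 fold changes without the pair, 0.26 (SE 0.14) and 0.08 (SE 0.13), both had an adjusted p of 1.00 by limma. A score of 9 striatum genes, made like that of the cortex, was 4.21 and 4.80 in C_O15 and C_O30 against 2.45 to 3.42 in C_W. All 9 were higher in C_O at an unadjusted p under 0.05 by limma without the pair (background 4.06%), and 0 passed the adjusted threshold. The part of these markers in the members' values was not tested.

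**Figure D4:**
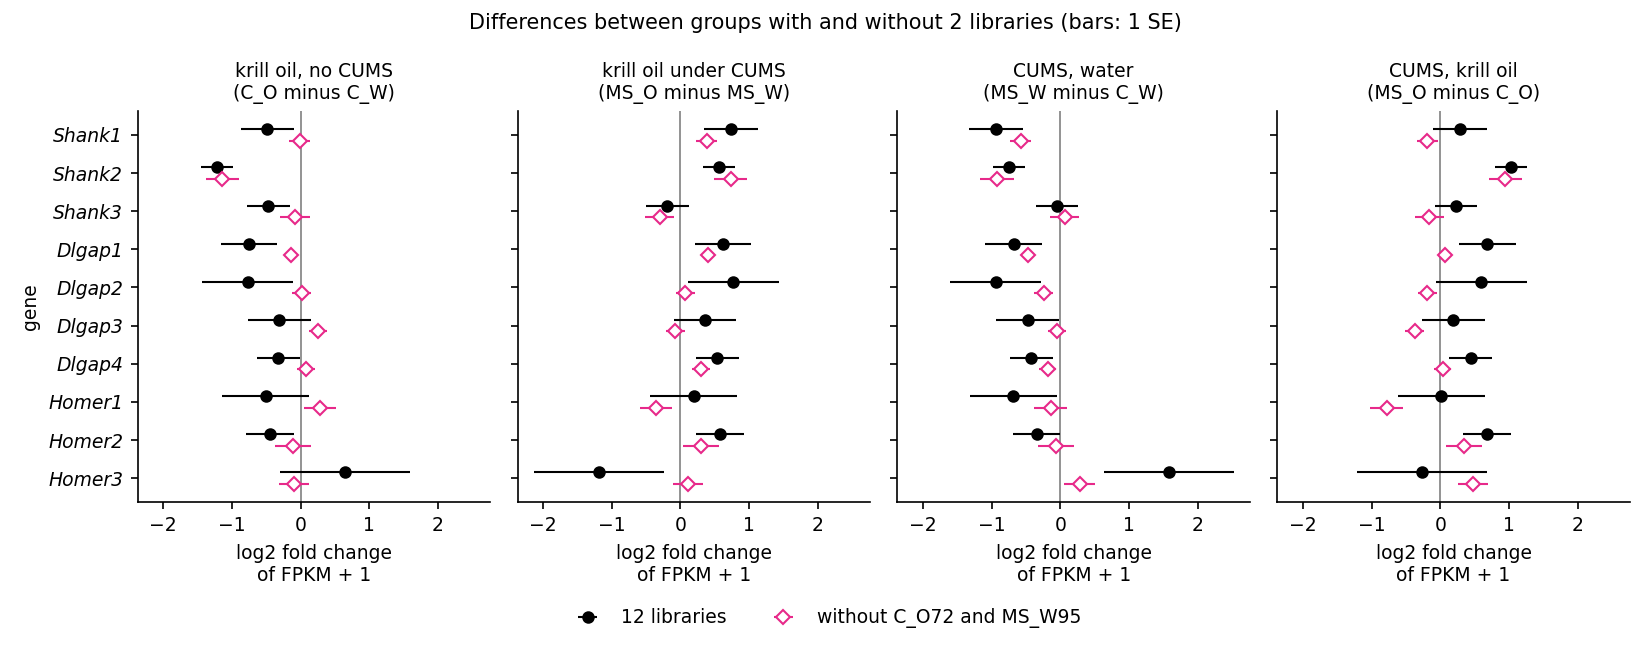
Log2 fold change of FPKM + 1 (horizontal axes) of the 10 scaffold genes (rows) in the 4 comparisons of groups, from limma on 12 libraries (black) and without C_O72 and MS_W95 (open diamonds), bars 1 SE. In the first panel the open symbols lie near 0 for most genes, while Shank2 stays at -1.14. In the other panels more of them lie away from 0. Examples are Dlgap1 at 0.41 in the second and Shank1 at -0.58 in the third. In the last panel Homer1 is at -0.78, Homer3 at 0.48 and Shank2 at 0.95.

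The second comparison was krill oil against water under CUMS. Shank2 was at 5.25, 10.6 and 11.2 FPKM in MS_W31, MS_W75 and MS_W95 and at 12.5, 13.2 and 13.8 FPKM in the MS_O libraries. MS_O was higher than MS_W without overlap, with a log2 fold change of 0.56 (SE 0.23) with 12 libraries and 0.73 (SE 0.24) without the pair. One library set much of the size, since the log2 fold change without MS_W31 was 0.25. This contrast, too, was used to pick Shank2.

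Dlgap1 showed the same arrangement. It was at 13.7, 11.4 and 7.76 FPKM in MS_W and at 15.8, 16.9 and 18.1 FPKM in MS_O, again without overlap, and its log2 fold change was 0.62 (SE 0.41, adjusted p = 0.837). Without the pair the difference was 0.41 (SE 0.10, unadjusted p = 0.00259, adjusted p = 0.229), which did not pass either. Shank1 was at 24.0, 17.9 and 9.39 FPKM in MS_W and at 26.1, 23.9 and 32.5 FPKM in MS_O, values that overlapped, with a log2 fold change of 0.73 (SE 0.39, adjusted p = 0.831), or 0.38 (SE 0.16, unadjusted p = 0.0407, adjusted p = 0.557) without the pair.

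In this comparison, again without Shank2, 0 of 9 members passed by limma (background 0.00467%) and 0 had an unadjusted p under 0.05 (background 6.09%). edgeR put 0 of 9 past the adjusted threshold (0.00467%) and 1, Homer3, under the unadjusted one (5.65%), and DESeq2 put 0 of 8 past either (0.373% and 7.32%). Without the pair limma had 3 of 9 at an unadjusted p under 0.05, Shank1, Dlgap1 and Dlgap4 (background 8.54%), and 0 past the adjusted threshold. Dlgap4 was at 25.7, 21.8 and 14.1 FPKM in MS_W and 24.7, 29.8 and 34.6 FPKM in MS_O, with 0.54 (SE 0.31, adjusted p = 0.833), or 0.30 (SE 0.13, unadjusted p = 0.0451, adjusted p = 0.572) without the pair. No member met the DEG criteria (background 2.81%), and besides Shank2 only Dlgap1 did not overlap (background 12.3%). Homer3 differed in mean by 21.1 ± 31.5 against 3.29 ± 0.870 FPKM (SD, n = 3), a difference that came from MS_W95 alone: its log2 fold change was -1.19 (SE 0.95) with 12 libraries and 0.11 (SE 0.22) without the pair. The median over the members was 0.55 with 12 libraries and 0.21 without the pair, and that over all tested genes -0.02 and 0.00.

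With krill oil Shank2 and Dlgap1 were thus lower than with water in every C_O library and higher than with water in every MS_O library. Such opposite differences without overlap were seen in 197 of 21393 tested genes (0.921%). Shank2 was picked for this pattern, so only Dlgap1, 1 of the other 9 members, can be set beside that share. For Dlgap1, the interaction of krill oil and CUMS was 1.37 (SE 0.58, unadjusted p = 0.0395, adjusted p = 0.665) by limma, and it was 0.55 (SE 0.14, adjusted p = 0.309) without the pair and 0.47 (SE 0.25, adjusted p = 0.645) with the cortex and hindbrain scores as covariates. For Shank2 the same term was 1.77 (SE 0.33) with 12 libraries and 1.87 (SE 0.34) without the pair, as a description only. Of the 9 members besides Shank2, 0 passed for the interaction by limma and edgeR (background 0% for both), and 0 of 8 by DESeq2 (background 0.712%). At an unadjusted p under 0.05 there was 1 by limma (Dlgap1, background 7.23%, and 7.51% without the pair, where it was again Dlgap1), 1 by edgeR (Homer3, 8.10%) and 0 of 8 by DESeq2 (10.1%). Without the pair the interaction went from 1.54 to 0.05 for Dlgap2, from 1.22 to 0.39 for Shank1, from 1.03 to 0.42 for Homer2 and from 0.86 to 0.22 for Dlgap4. Its sign turned for the other 4, from 0.70 to -0.64 for Homer1, from 0.67 to -0.33 for Dlgap3, from 0.28 to -0.23 for Shank3 and from -1.84 to 0.20 for Homer3.

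The third comparison, CUMS against no stress in mice on water, had the most members apart. Shank1, the brain-specific Shank of mature spines, was at 31.2, 31.03 and 32.2 FPKM in C_W and at 24.0, 17.9 and 9.39 FPKM in MS_W. All 3 MS_W values were below all C_W values, and the log2 fold change was -0.93 (SE 0.39, unadjusted p = 0.0367, adjusted p = 0.451 by limma). It was -0.58 (SE 0.16, unadjusted p = 0.00566, adjusted p = 0.142) without the pair, and -0.47 (SE 0.22, adjusted p = 0.635) with the cortex and hindbrain scores as covariates.

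Dlgap1, at 13.7, 11.4 and 7.76 FPKM in MS_W against 17.2 to 18.8 FPKM in C_W, also did not overlap. Its log2 fold change was -0.68 (SE 0.41, adjusted p = 0.567) and, without the pair, -0.47 (SE 0.10, unadjusted p = 0.00102, adjusted p = 0.0667), the smallest adjusted p of the 9 members besides Shank2 in any comparison on 10 libraries. With the cortex and hindbrain scores as covariates it was -0.12 (SE 0.25, adjusted p = 0.929). The cortex score was lower in all 3 MS_W libraries than in all 3 C_W libraries, as given above, so these fits cannot cleanly separate it from the group. Its part in the lower Dlgap1 and Shank1 values was not tested. With the striatum and Purkinje scores as covariates the log2 fold change was -0.19 (SE 0.84) for Dlgap1 and -0.27 (SE 0.60) for Shank1.

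Shank2 was at 5.25, 10.6 and 11.2 FPKM in MS_W, each below the C_W values, with a log2 fold change of -0.75 (SE 0.23) and -0.92 (SE 0.24) without the pair. As MS_W and C_W are the water arms of the contrasts that picked Shank2, this is a description. Without MS_W31, the lowest of the 3, it was -0.44.

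Between MS_W and C_W, 4 of the 9 members besides Shank2 were lower in MS_W without overlap (Shank1, Dlgap1, Dlgap2 and Dlgap4), as was Shank2, and none was higher. Of all tested genes 24.6% did not overlap, 8.22% lower and 16.3% higher in MS_W. The 4 included Dlgap4 (25.7, 21.8 and 14.1 against 26.5 to 27.6 FPKM), a broadly expressed Dlgap, and Dlgap2 (5.95, 6.01 and 0.634 against 6.40 to 7.77 FPKM), for which the nearest values of the groups lay close. The same 4 did not overlap without the pair, where 38.8% of all genes did not. Other marker scores moved with these groups: the pan-neuronal score (6.41 to 6.75 in MS_W, 6.79 to 6.98 in C_W) and the immediate early gene score (2.46 to 4.28 against 4.32 to 4.91) were lower and the astrocyte score (4.46 to 5.42 against 3.84 to 4.06) higher in MS_W without overlap. The striatum score was 5.36 and 5.94 in MS_W31 and MS_W75 against 2.45 to 3.42 in C_W, with 9 of 9 of its genes higher past the adjusted threshold without the pair, and 2.37 in MS_W95. The part of these markers in the members' values was not tested. By limma 0 of the 9 passed the adjusted threshold (background 0.00467%), and 1, Shank1, had an unadjusted p under 0.05 (background 10.5%), with Dlgap1 beside it without the pair (background 15.4%). No member met the DEG criteria (background 4.59%). edgeR also put 0 of 9 past the adjusted threshold (0.00467%), with 2 (Shank1 and Homer3) at an unadjusted p under 0.05 (background 9.37%), and DESeq2 0 of 8 (1.83%), with 1, Shank1, unadjusted (11.7%).

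Shank3 overlapped between MS_W and C_W. At 20.3, 20.7 and 16.01 FPKM in MS_W and 18.5, 18.7 and 21.6 FPKM in C_W, its log2 fold change was -0.05 (SE 0.31, adjusted p = 0.959), and it was 0.60 (SE 0.28) with the cortex and hindbrain scores and -0.73 (SE 0.71) with the striatum and Purkinje scores as covariates. With Shank1 and Shank2 lower, Shank3 made up 40.9% to 43.7% of the Shank sum in MS_W compared with 28.7% to 31.1% in C_W, 26.2% to 40.4% in C_O and 25.7% to 35.6% in MS_O. These shares were not tested.

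The fourth comparison was CUMS against no stress in mice on krill oil. MS_O and C_O are the krill oil arms of the contrasts that picked Shank2, so its log2 fold change of 1.03 (SE 0.23) with 12 libraries and 0.95 (SE 0.24) without the pair is a description. Of the other 9 members, 0 passed by limma (background 0.00467%), 0 had an unadjusted p under 0.05 (background 8.88%), 0 met the DEG criteria (background 3.57%) and 0 were without overlap (background 12.2%). edgeR put 0 of 9 past the adjusted (0.00467%) and the unadjusted threshold (8.54%), and DESeq2 0 of 8 (0.811% and 10.6%). Of the other 9, Dlgap1 (0.69, SE 0.41, adjusted p = 0.651) and Homer2 (0.68, SE 0.35, adjusted p = 0.599) had the largest differences, which were 0.08 (SE 0.10) and 0.35 (SE 0.26) without the pair. Homer2 was at 3.75, 7.68 and 7.26 FPKM in MS_O and 4.22, 4.76 and 1.74 FPKM in C_O, so that MS_O46 and MS_O78 were high and MS_O13 lay within the C_O range. The same 2 libraries had the highest olfactory bulb markers, a summed FPKM of 6 genes of 271 and 284 against at most 101 in any other library, and their part in the Homer2 values was not tested.

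Without the pair, Homer1 and Dlgap3 were lower in MS_O than in both remaining C_O libraries. Homer1, whose short form is induced by neuronal activity, was at 8.28, 4.99 and 6.92 FPKM in MS_O and at 14.4 and 10.1 FPKM in C_O15 and C_O30, with a log2 fold change of -0.78 (SE 0.24, unadjusted p = 0.0103, adjusted p = 0.335), compared with 0.02 (SE 0.63) when C_O72 with its 1.496 FPKM was included. Dlgap3 was at 43.1, 30.2 and 36.4 FPKM in MS_O and 49.3 and 45.1 FPKM in C_O, with -0.37 (SE 0.14, adjusted p = 0.337) without the pair and 0.19 (SE 0.46) with it. Neither passed by limma. On these 10 libraries both had an unadjusted p under 0.05 (background 13.6%), and both were without overlap (background 26.8%).

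CUMS over both treatments, the mean of the CUMS contrasts, is orthogonal to both krill oil contrasts that picked Shank2 when all 12 libraries are used, so here Shank2 could be tested too. With 12 libraries Shank2 did not differ beyond its error, with a log2 fold change of 0.14 (SE 0.17, adjusted p = 0.778) by limma. Without the pair it was 0.01 (SE 0.17), a description, since the contrast is then no longer orthogonal to those that picked Shank2. None of the 10 passed by limma (background 0.00935%), edgeR (0.00467%) or, for the 9 with a p, DESeq2 (1.46%), and none had an unadjusted p under 0.05 by any of them (background 12.5%, 10.5% and 13%). Homer3 had the largest value, 0.66 (SE 0.67, adjusted p = 0.727), followed in size by Homer1 at -0.34 (SE 0.45, adjusted p = 0.804) and Shank1 at -0.33 (SE 0.28, adjusted p = 0.666). Without the pair 4 of the 9 members besides Shank2 had an unadjusted p under 0.05 by limma (background 22.2%). They were Shank1 at -0.38 (SE 0.11, adjusted p = 0.116) and Dlgap1 at -0.20 (SE 0.07, adjusted p = 0.152). The others were Homer1 at -0.46 (SE 0.17, adjusted p = 0.169) and Homer3 at 0.38 (SE 0.16, adjusted p = 0.203).

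**Figure D5:**
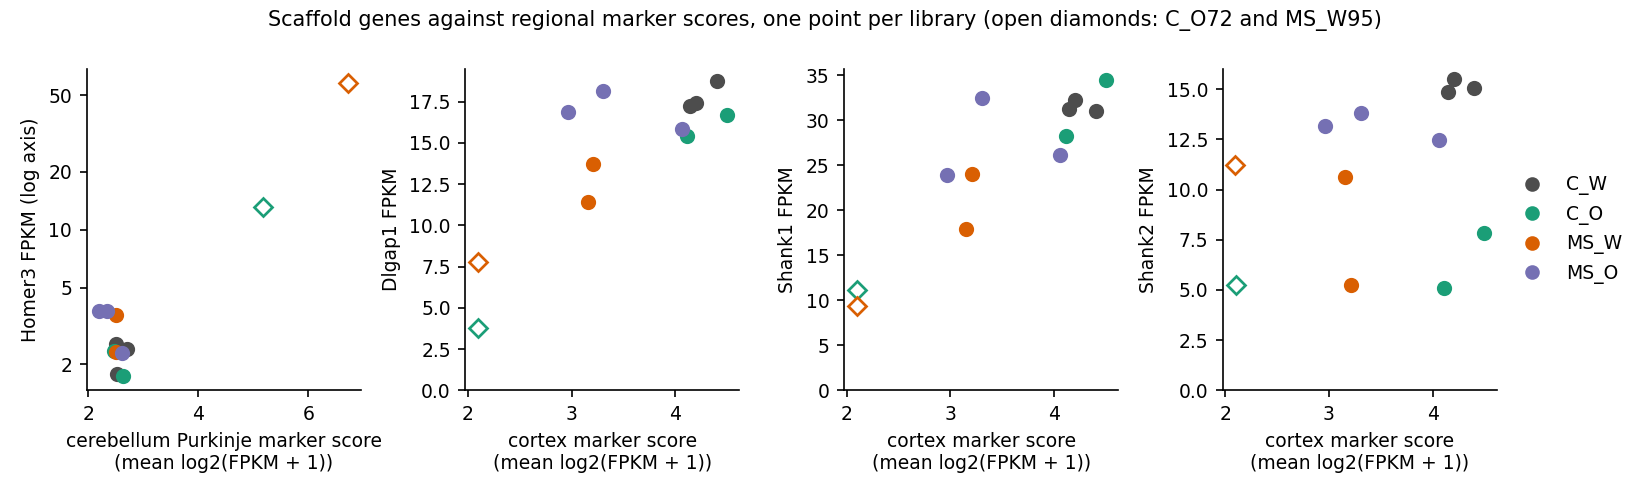
FPKM of Homer3 (log axis), Dlgap1, Shank1 and Shank2 (linear axes from 0) against the mean log2(FPKM + 1) of Purkinje cell or cortex marker genes, 1 point per library coloured by group. C_O72 and MS_W95 (open diamonds) are at the high end of the Purkinje axis and at 2.10 on the cortex axis.

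The 4 libraries with Shank2 under 8 FPKM were C_O30, C_O72, MS_W31 and C_O15, with cortex scores of 4.11, 2.10, 3.21 and 4.4996, and the next value up was 10.6 FPKM in MS_W75.

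The binding partners of the scaffolds were counted as 6 lists with 41 genes. They were the PSD-95 family (Dlg1 to Dlg4), ionotropic and group I metabotropic glutamate receptors, calcium channels and other Homer partners, actin regulators and signalling proteins of the spine, excitatory adhesion molecules, and 3 genes of the inhibitory postsynapse for comparison. None of the 41 passed the adjusted threshold by limma in any of the 6 contrasts on 12 libraries. At an unadjusted p under 0.05 there were 2 in C_O against C_W (both lower, background 3.55%) and 0 in MS_O against MS_W (6.09%). There were 4 in MS_W against C_W (2 higher, 2 lower, background 10.5%) and 5 in MS_O against C_O (4 higher, 1 lower, 8.88%). For CUMS over both treatments there were 5 (12.5%), and for the interaction 2 (7.23%). edgeR also put 0 past the adjusted threshold in the 6 contrasts, with 0 to 5 unadjusted (background 4.47% to 10.5%). DESeq2 put 2 past the adjusted threshold in MS_W against C_W (background 1.83%), 1 of them Dlg1, and 0 in the other 5 contrasts. Unadjusted, DESeq2 had 0 to 8 over the 6 contrasts (background 5.87% to 13%). Dlg1 (SAP97) was at 8.98, 7.52 and 8.49 FPKM in MS_W and 10.4 to 13.6 FPKM in C_W. The groups did not overlap, and by limma Dlg1 had a log2 fold change of -0.51 (adjusted p = 0.326).

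In their medians the partners showed the same dependence on the pair as most scaffolds. Their median log2 fold change was -0.30 between C_O and C_W, with 34 of 41 below 0, and 0.05 without the pair, with 17 below 0. Between MS_W and C_W it was -0.30 and then -0.02. The counts at an unadjusted p under 0.05 by limma did not fall without the pair. They were 6 higher and 7 lower in MS_W against C_W (background 15.4%) and 4 higher and 7 lower for CUMS over both treatments (22.2%). In C_O against C_W 1 was higher and 3 lower (4.06%), and in MS_O against MS_W 2 and 3 (8.54%). There were 3 and 4 in MS_O against C_O (13.6%) and 1 and 2 for the interaction (7.51%). The summed FPKM of the Dlg1 to Dlg4 list was 44.8 and 63.1 in C_O72 and MS_W95 against 107 to 124 in the other libraries.

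The gene with the smallest unadjusted p was looked at in the lists of excitatory synapses. Dlg2 (PSD-93) was at 10.3, 9.67 and 4.16 FPKM in C_O and 17.4, 19.1 and 19.5 FPKM in C_W, with a log2 fold change of -1.20 (SE 0.34, adjusted p = 0.908), or -0.84 without the pair. Dlg2, like Shank2, was lower in C_O15 and C_O30 as well as in C_O72, and 9.42% of all tested genes did not overlap between these groups. Under CUMS Dlg2 was at 18.2, 18.4 and 8.17 FPKM in MS_O and at 19.1, 18.8 and 14.2 FPKM in MS_W. These values overlapped, unlike those of Shank2.

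Gria1, an AMPA receptor subunit, was at 62.4, 84.4 and 81.7 FPKM in MS_O against 54.8, 56.1 and 32.5 FPKM in C_O, with a log2 fold change of 0.69 (SE 0.20, adjusted p = 0.479), or 0.44 (adjusted p = 0.335) without the pair. Begain, a PSD-95 binding protein, was at 16.3, 16.8 and 10.1 FPKM in MS_W against 25.8 to 28.1 FPKM in C_W, with -0.90 (SE 0.27, adjusted p = 0.322), or -0.69 (adjusted p = 0.0978) without the pair. The lists of Homer partners and adhesion molecules had no gene with an unadjusted p under 0.05 in these 4 comparisons on 12 libraries, their smallest being those of Ryr3 between MS_W and C_W (0.0606) and Nlgn1 between C_O and C_W (0.102). Without the pair Ryr3 (ryanodine receptor 3) was higher in MS_W than in C_W by 0.81 (unadjusted p = 0.000669, adjusted p = 0.0542) and lower in MS_O than in MS_W (-0.50, unadjusted p = 0.0112, adjusted p = 0.412). Nlgn3 between MS_W and C_W (0.53, unadjusted p = 0.0347) and Lrrc4 between MS_W and C_W (-0.34, unadjusted p = 0.0242) and between MS_O and C_O (-0.39, unadjusted p = 0.0134) then also had an unadjusted p under 0.05. Without the pair 1 partner passed in MS_W against C_W, and 1 for CUMS over both treatments, both lower. The share of all genes that passed there is not given here. Of the markers, 9 of 9 striatum genes and 2 of 10 cortex genes also passed between MS_W and C_W. The partner in MS_W against C_W, named after its values were seen, was Kalrn (kalirin, a guanine nucleotide exchange factor of dendritic spines). Kalrn was at 11.8 and 11.02 FPKM in MS_W31 and MS_W75 against 23.7 to 24.0 FPKM in C_W. It fell by 1.00 on the log2 scale (adjusted p = 0.0243 by limma), and with MS_W95, at 1.87 FPKM, included the log2 fold change was -1.71 with an adjusted p of 0.489. The part of the lower cortex score of MS_W in these values was not tested.

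The genes whose pattern was most like that of Shank2 were sought among 13620 others with a mean FPKM of at least 1, by the root mean square difference of the centred log2(FPKM + 1) over the 12 libraries. The nearest 5 were Mir374b (0.33), Zbtb12 (0.33), Lrp8 (0.35), Gm14703 (0.36) and Gm14403 (0.37), where the root mean square of Shank2 around its own mean was 0.54 and the median difference over all genes 0.59. With a smaller pseudocount of 0.1, only 1 of these 5, Gm14703, was still among the first 5. No other scaffold was near: the closest, Dlgap1 and Dlgap4, had differences of 0.56 and ranked 4487 and 4524, and Homer3 was farthest with 1.41. 

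Overlapping genes were looked up in the same table, since their reads can be hard to assign. Ddx49, an RNA helicase gene on the opposite strand, overlaps Homer3 and had 7.60 to 10.8 FPKM, with 7.60 FPKM in MS_W95 where Homer3 was at 57.5 FPKM. The rows that overlap Shank2 were at most 0.19 FPKM (Gm14372), and those with a mean of at least 0.1 over other members were 1700008O03Rik and Gm44757 (Shank1), Gm15609 (Shank3) and 4930405A21Rik (Dlgap4), none above 0.965 FPKM in any library. Whether the counting used strand is not given in the sources used here.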

How the data were processed

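The deposited table held, for each gene and library, an estimated count and an FPKM value, both made by the authors, who trimmed reads with cutadapt 1.9, aligned them to mm10 with HISAT2 2.0.4 and quantified genes with StringTie 1.3.4d. Estimated counts summed to 50912906 to 75678721 per library, and values without signal were listed at 0.0001. Groups and mouse numbers came from the sample labels. FPKM was transformed as log2(FPKM + 1), genes averaging under 0.1 FPKM were dropped, and limma 3.58.1 was fitted to all 12 libraries with one mean per group, with Benjamini-Hochberg adjustment over 21393 genes at 0.05. edgeR 4.0.16 and DESeq2 1.42.0 on rounded estimated counts, other pseudocounts, filters, scalings, marker scores as covariates and left-out libraries were alternatives. The scripts were tested on simulated data. Named genes were all members and, per partner list, the gene with the smallest p. Members and lists were chosen with earlier results of these data known. Coordinates are GRCm38. The p-values set differences between groups of 3 mice against a spread between mice that was pooled over the 4 groups. In limma this spread was also moderated across genes. Some partner and marker genes are not reported here. Protein and promoter sequences were not used here.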

Additional observations from a re-analysis of the deposited data

Results flagged for a closer look

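Shank2 stood out because its krill oil difference had opposite signs without and with CUMS. Every C_O library (5.08 to 7.83 FPKM) was below every C_W library (14.9 to 15.5 FPKM), and every MS_O library (12.5 to 13.8 FPKM) was above every MS_W library (5.25 to 11.2 FPKM). The interaction on the log2 scale was 1.77, and the difference was not tested, since the gene was picked for it. The same 4 groups gave opposite CUMS differences, lower with water and higher with krill oil, whose difference is the same 1.77 and was not tested either.

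Dlgap1 was noted for the same arrangement of krill oil differences. Its C_O libraries (3.78 to 16.7 FPKM) were below C_W (17.2 to 18.8 FPKM) and its MS_O libraries (15.8 to 18.1 FPKM) above MS_W (7.76 to 13.7 FPKM). The interaction of Dlgap1 was 1.37 (adjusted p = 0.665 by limma), which did not pass.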

How the results depend on the processing

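With 3 mice per group, C_O72 and MS_W95 set the spread of most members, and no member apart from Shank2 passed an adjusted threshold under any alternative. The direction of the log2 fold changes did not always hold. Without the pair the sign turned, among others, for Dlgap3 in C_O against C_W (-0.31 to 0.26). It also turned for Homer1 in MS_O against C_O (0.02 to -0.78). With the cortex and hindbrain scores as covariates, Dlgap3 in MS_W against C_W went from -0.48 to 0.26. Of 1420 recomputed log2 fold changes 3, all of Shank2, passed the adjusted threshold only with DESeq2, and no other call changed. DESeq2 thus called 1 member in each of C_O against C_W, MS_O against C_O and the interaction, where limma called 0; it was Shank2, which was picked on these groups, and DESeq2 gave no p for Homer3. By the DEG criteria with edgeR p-values 1 member, Homer3, was called in MS_O against MS_W and 1, again Homer3, in MS_W against C_W, where limma called 0. The share of all genes that met these edgeR criteria is not given here. An unadjusted p under 0.05 alone was reached by 5.65% and 9.37% of all genes with edgeR. In MS_W, Homer3 was at 57.5 FPKM in MS_W95 and at 3.61 and 2.33 FPKM in MS_W31 and MS_W75. Without C_O72 and MS_W95 the groups did not overlap for 4 members in C_O against C_W (background 19.3%), and for 2 with all libraries (9.42%). In MS_O against C_O there were 3 without the pair (26.8%) and 1 with all libraries (12.2%). Shank2 is in each of these counts. The cause of these shifts was not tested.

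Leaving out 1 library at a time gave 0 to 0 members past the adjusted threshold in all 6 contrasts. Members meeting the DEG criteria numbered 1 to 1 in C_O against C_W and 0 to 2 in MS_O against MS_W. The 2 were Shank1 and Homer2, without MS_W31. In MS_W against C_W there were 0 to 1 (Shank1 without MS_W31, Homer3 without MS_W75). In MS_O against C_O there were 1 to 2, with Homer2 added without C_O30 or MS_O13. With all libraries the 1 in C_O against C_W and in MS_O against C_O was Shank2, which was picked on these groups. Over all genes 1.76%, 2.81%, 4.59% and 3.57% met the criteria with 12 libraries, in the same order. Members without overlap, with Shank2 counted, numbered 2 to 4, 2 to 5, 5 to 6 and 1 to 4 in the same order. The first comparison had 4 without C_O30 or C_O72. The second had 5 without MS_W31 and 4 without MS_O13. The fourth had 4 without MS_O13, 3 without C_O72 and 2 without C_O15. Over all genes 9.42%, 12.3%, 24.6% and 12.2% did not overlap with 12 libraries. The shares without the pair were higher, as given above, and those with 1 library left out are not given here. Ranked by the mean of 10 libraries or the median of 12, Homer1 was at place 7, Dlgap2 at 8, Homer2 at 9 and Homer3 at 10. No scaling shifted the median of all genes by more than 0.09. No paired analysis was possible because the groups share no mouse number. A group left with 2 libraries was assumed to vary like the others.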
